A study of Mus musculus with 6 samples.

Results

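The S100 family of small calcium-binding proteins was examined in newborn mouse epidermis by bulk RNA sequencing, across 3 libraries labelled control and 3 labelled Hnrnpu knockout. The members were a list of 8 genes, S100a8, S100a9, S100a4, S100a6, S100a10, S100a11, S100a14 and S100a16, matched by Ensembl gene ID, and 7 of the 8 were found among the 12894 genes of the table. S100a4 was not analysed here. In the member order above, without S100a4, the IDs are ENSMUSG00000056054, ENSMUSG00000056071, ENSMUSG00000001025, ENSMUSG00000041959, ENSMUSG00000027907, ENSMUSG00000042306 and ENSMUSG00000074457. Epidermis had been separated from the dermis of C57BL/6 mice at postnatal day 0, and Hnrnpu had been removed with a loxP-Cre system whose driver is not given in the sources used here. Control 1 carried the genotype label Wild type, controls 2 and 3 the label Heterogenous, and the knockouts the label Hnrnpu knockout. Each title has its own animal number, so the libraries were read as separate animals. If they were not, the p-values measure only the spread between these samples.

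S100 proteins are short proteins with a pair of EF-hand calcium-binding loops that act mostly as dimers. Inside the cell most of them bind annexins, myosin and other partners when calcium rises. S100a8 and S100a9 form calprotectin, a protein that binds zinc and manganese, is abundant in neutrophils and is made by keratinocytes of wounded or inflamed skin. Released from cells, it acts as an alarmin through receptors such as Tlr4 and Ager. Most of the other listed members are usually described as steadily expressed in epithelia, and most S100 genes lie in the epidermal differentiation complex on mouse chromosome 3.

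Values are normalized counts per gene, and values of a group are given in the order of replicates 1, 2 and 3. Estimated depth was 6460000 to 9120000 reads. It was lowest in labelled knockout 2, where a value of 1.70 stood for 1 read, against 0.755 to 1.11 in the other 5 libraries. The targeted gene Hnrnpu stood at 1450, 1318 and 1160 normalized counts in controls against 1565, 1342 and 1036 in labelled knockouts (log2 difference −0.01 ± 0.20, limma adjusted p = 0.976), so its level does not show the deletion. All directions rest on the labels. Xist, the RNA of the inactive X chromosome, reached 5656 and 4758 normalized counts in labelled knockouts 2 and 3 and at most 3.27 in the other 4, so the sexes were not balanced. Keratinocyte markers were all present: 9 of 9 were in the table, and Krt1 and Krt10, keratins of the layers above the basal layer, had 199700 to 352500 and 159400 to 291300 normalized counts. Of 12872 genes tested, 33.6% passed the threshold, an adjusted p of 0.05 from limma with Benjamini-Hochberg adjustment over all of them. Labelled knockouts were higher for 2279 genes (17.7%) and lower for 2049 (15.9%), a split that became 1440 and 3065 with library totals set equal. The median gene was at −0.02 on the log2 scale.

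S100a8 and S100a9 were listed at or near 0 in controls and were present in all 3 labelled knockouts, at very different levels. Among the 5 other members, S100a6 rose about 12-fold from a low level, S100a11 and S100a16 rose about 2-fold from high levels, and S100a10 and S100a14 did not pass the threshold. Every gene in the table had an estimated 30 reads or more in some library. S100a8 and S100a9, at or near 0 in controls, thus entered it only through labelled knockouts. So did every gene under an estimated 30 reads in all controls. Counts of higher members rest partly on such genes where a list holds them. In all, 5 of the 7 tested members were higher and 0 lower, where 17.7% of all genes were higher. For these 5 members all labelled knockouts lay above all controls, which held for 25.8% of all genes tested, while 50.8% had groups that did not overlap in either direction. The median log2 difference of the 7 members was 1.03, the value of S100a16, against −0.02 for all genes. No member fell in any of the settings tried. With a replicate block for adjacent animal numbers, S100a10 and S100a14 also passed, making 7 of 7, where 22.9% of all genes were higher.

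**Figure D1:**
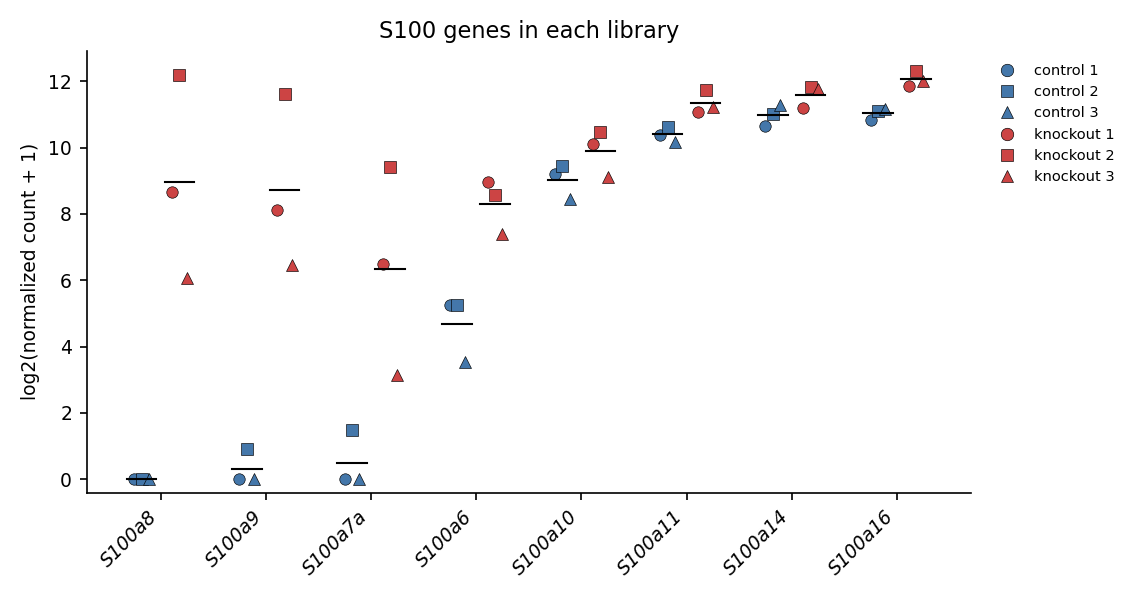
Points show log2(normalized count + 1) of each S100 gene in the table, with 3 control libraries in blue and 3 labelled knockouts in red, symbols for the replicate number and black lines for group means. S100a8, S100a9 and S100a7a sit at or near 0 in controls and are spread widely in labelled knockouts, while S100a11, S100a14 and S100a16 are high in every library.

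S100a8, the smaller calprotectin subunit, was listed at 0 in all 3 controls and reached 403, 4682 and 65.4 normalized counts in labelled knockouts. These correspond to an estimated 431, 2750 and 59 reads. Each labelled knockout was above each control, and the highest of them had 71.6 times the lowest. The log2 difference was 8.97 ± 1.27 (SE, n = 3 and 3; limma adjusted p = 0.00162). With all controls listed at 0 this size depends on the pseudocount and bounds no fold: it was 9.96 with a pseudocount of 0.5 and 6.68 with 5.

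S100a9, the larger subunit, was listed at 0 in controls 1 and 3 and had 0.886 normalized counts, or 1 read, in control 2. Labelled knockouts held 277, 3156 and 86.5 normalized counts of it, again with replicate 2 highest and 3 lowest. The log2 difference was 8.43 ± 1.12 (SE, n = 3 and 3; limma adjusted p = 0.00122), and 9.24 and 6.36 with pseudocounts of 0.5 and 5. The ratio of S100a8 to S100a9 normalized counts was 1.46 and 1.48 in labelled knockouts 1 and 2 and 0.756 in labelled knockout 3. Across the 6 libraries the log2 values of both genes had a Pearson correlation of 0.996, which includes the difference between groups.

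S100a7a, the mouse relative of psoriasin and an antimicrobial protein of inflamed skin, was the only further S100 gene in the table, of 9 looked for. It had 0, 1.77 and 0 normalized counts in controls and 88.8, 684 and 7.76 in labelled knockouts. The groups did not overlap, but the lowest labelled knockout value came from an estimated 7 reads. The log2 difference was 5.86 ± 1.40 (SE, n = 3 and 3; limma adjusted p = 0.0142). Of the 36-base stretches of its annotated transcripts, 7.38% also occur in other genes, so a few of its reads may come from elsewhere.

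The spread of these 3 genes between animals was among the widest measured. The standard deviation of log2 values over the 3 labelled knockouts was 3.08 for S100a8, 2.64 for S100a9 and 3.15 for S100a7a. Only 0.311, 0.513 and 0.256% of the 12872 genes tested had a larger one. The order labelled knockout 2, 1, 3 was common among the 2279 genes that were higher, of which 38.8% had it. The calls of S100a8 and S100a9 held in all 17 alternative settings. Among these settings, labelled knockout 1 alone against the controls holds no spread between labelled knockouts. Without labelled knockout 2 the log2 differences were 7.36 for S100a8, 6.98 for S100a9 and 4.32 for S100a7a (limma adjusted p = 0.00161, 0.00113 and 0.0359).

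Neutrophils also make calprotectin, and marker genes of neutrophils were high in labelled knockout 2. Of 13 markers looked for, 9 were in the table. Their summed level was 51.5 to 127.5 normalized counts in controls and 249, 1858 and 137.5 in labelled knockouts. The granule gene Ngp was listed at 0 in the 3 controls and had 0.934, 143 and 0 normalized counts in labelled knockouts. Retnlg, a resistin-like gene of neutrophils, was listed at 0 in the controls and had 0.934, 211 and 1.11. The collagenase gene Mmp8 had at most 0.817 in a control and 0, 228 and 0 in labelled knockouts. These 3 markers, which the list did not set apart beforehand, were at 1 read or 0 in labelled knockout 1 and 3. There S100a8 had 403 and 65.4 normalized counts. All markers but Il1r2 summed to 49.5 and 36.6 normalized counts in these libraries, against 5.72 to 10.6 in controls.

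The other 6 neutrophil markers were also highest in labelled knockout 2, while labelled knockouts 1 and 3 took either order. The formyl peptide receptor gene Fpr1 had 0.934, 93.6 and 0 normalized counts in labelled knockouts, and Fpr2 had 0, 69.8 and 2.22. The chemokine receptor gene Cxcr2 had 25.2, 349 and 11.1, against 1.51 to 2.66 in controls, and passed the test (log2 difference 4.05 ± 1.13, limma adjusted p = 0.0259), a call lost without control 1, 2 or 3. Mmp9, a gelatinase gene, had 20.6, 119 and 4.43 against 0.817 to 3.02, and missed the threshold (adjusted p = 0.0508, or 0.0303 with the replicate block). Csf3r, the receptor of granulocyte colony-stimulating factor, had 0.934, 158 and 17.7 against 1.64 to 6.04. The decoy receptor gene Il1r2 was detected in every library, with 45.8 to 119.5 in controls and 199, 487 and 101 in labelled knockouts (limma adjusted p = 0.072, or 0.00247 with the replicate block). Without Il1r2 the markers summed to 5.72 to 10.6 normalized counts in controls and 49.5, 1371 and 36.6 in labelled knockouts. Of the 4 markers tested 1 was higher, or 3 with the block, where 17.7% of all genes were higher, or 22.9% with the block. Cxcr2 and Mmp9, with at most 3 and 4 estimated reads in a control, entered the table only through labelled knockouts. The part of neutrophils in the S100a8 and S100a9 level of any labelled knockout was not tested. In bulk tissue fewer cells of a type and less RNA per cell cannot be told apart.

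**Figure D2:**
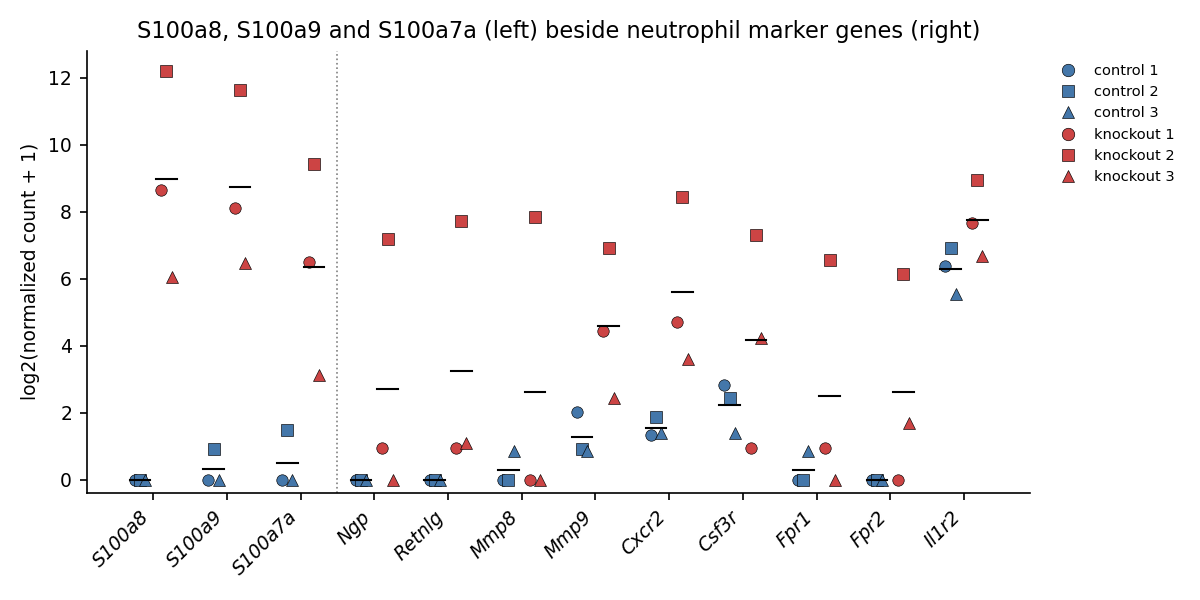
Points show log2(normalized count + 1) in each library for S100a8, S100a9 and S100a7a, left of the dotted line, and for 9 neutrophil marker genes, right of it, with lines for group means. The library labelled knockout 2 (red squares) has all 9 markers above 50 normalized counts, while S100a8 and S100a9 are also present in labelled knockout 1 and 3, where Ngp, Retnlg and Mmp8 sum to 1.87 and 1.11 but Cxcr2 (25.2 and 11.1) and Mmp9 (20.6 and 4.43) lie above all controls.

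Summed pan-leukocyte, erythroid, monocyte and Langerhans cell markers were highest in the same library. Beside the counts of markers that follow, 17.7% of all genes were higher and 15.9% lower. The summed pan-leukocyte markers were 280 to 418 normalized counts in controls and 94.4, 1080 and 255 in labelled knockouts, and 0 of 6 passed the test (Laptm5 and Ptprc had limma adjusted p = 0.73 and 0.352). Erythroid genes summed to 13.6 to 112 in controls and 0.934, 695 and 9.98 in labelled knockouts, with Hbb-bs at 0.934, 486 and 7.76 and Hba-a2 at 0, 129 and 2.22. Monocyte and macrophage markers summed to 568 to 866 and to 349, 1582 and 575, with Itgam at 52.3, 573 and 82.1 in labelled knockouts and 2 of 9 higher and 2 lower. Cd68 and Lyz2 were higher (0.96 ± 0.32 and 1.34 ± 0.43, limma adjusted p = 0.0476 and 0.0429), and Csf1r and C1qa lower (−1.13 ± 0.37 and −1.20 ± 0.37, adjusted p = 0.0439 and 0.0382). All 4 of these calls were lost without control 1, 2 or 3 and without labelled knockout 1, among other settings. Langerhans cell markers, led by Cd74 and H2-Ab1, summed to 34.3 to 166 and 22.4 to 269, with 0 of 3 past the threshold. Of the T cell markers Il2rb and Cd3e, Cd3e was lower (−3.06 ± 0.71, adjusted p = 0.0128), a call lost without control 1 or 2. Endothelial Pecam1 had 6.54, 59.6 and 11.1 normalized counts in labelled knockouts. Each of 8 melanocyte genes rose, with Dct and Pmel by 2.90 ± 0.20 and 2.91 ± 0.29, as did 3 of 5 fibroblast genes, with Col3a1 by 3.81 ± 0.65 (lost with labelled knockout 1 alone) and Dcn not past the threshold (−0.75 ± 0.58). The part of these cells in the S100 values was not tested.

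S100a6, or calcyclin, which binds annexins and the ubiquitin ligase adaptor Cacybp, was scarce in controls. It had 37.0, 37.2 and 10.6 normalized counts in controls and 496, 378 and 166 in labelled knockouts. The lowest labelled knockout was 4.47 times the highest control. The mean went from 28.3 ± 15.3 to 347 ± 167 (SD, n = 3 and 3), a ratio of 12.3, and the log2 difference was 3.62 ± 0.55 (SE; limma adjusted p = 0.00215). The range without any single library was 3.05 to 4.08, and the call held in all 17 alternatives.

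S100a16, an epithelial member with a single working calcium site, had 1811, 2198 and 2290 normalized counts in controls and 3743, 5061 and 4109 in labelled knockouts. All labelled knockouts lay above all controls, the lowest at 1.63 times the highest control. The mean ratio was 2.05 and the log2 difference 1.03 ± 0.19 (SE, n = 3 and 3; limma adjusted p = 0.00458). S100a11, the partner of annexin A1 in the cornifying keratinocyte, had 1339, 1587 and 1157 normalized counts in controls and 2176, 3436 and 2416 in labelled knockouts. Its log2 difference was 0.96 ± 0.22 (limma adjusted p = 0.0121), and the call was lost without control 3 (0.85, adjusted p = 0.053) and with labelled knockout 1 alone (0.69). Of the 36-base stretches of its annotated transcripts, 46.8% also occur in 5 other genes, among them the pseudogene S100a11-ps, so its value is uncertain where such reads were shared. The other 6 members in the table shared no such stretch with another gene.

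S100a10, which forms a tetramer with annexin A2 at the plasma membrane, had 590, 694 and 352 normalized counts in controls and 1100, 1429 and 548 in labelled knockouts. The groups overlapped, because labelled knockout 3 lay below controls 1 and 2. The log2 difference was 0.86 ± 0.38 (SE, n = 3 and 3; limma adjusted p = 0.111), and its 95% interval ran from −0.01 to 1.72. With a replicate block for adjacent animal numbers the adjusted p was 0.00394, with each labelled knockout above the control of the adjacent number, and without labelled knockout 3 the difference was 1.26 (adjusted p = 0.0165). S100a14, a member found in surface epithelia, had 1622, 2067 and 2494 normalized counts in controls and 2358, 3598 and 3515 in labelled knockouts, with labelled knockout 1 below control 3. Its log2 difference was 0.61 ± 0.23 (95% interval 0.08 to 1.15 before adjustment). Its limma adjusted p was 0.0747, or 0.0115 with the replicate block and 0.0319 without labelled knockout 1.

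**Figure D3:**
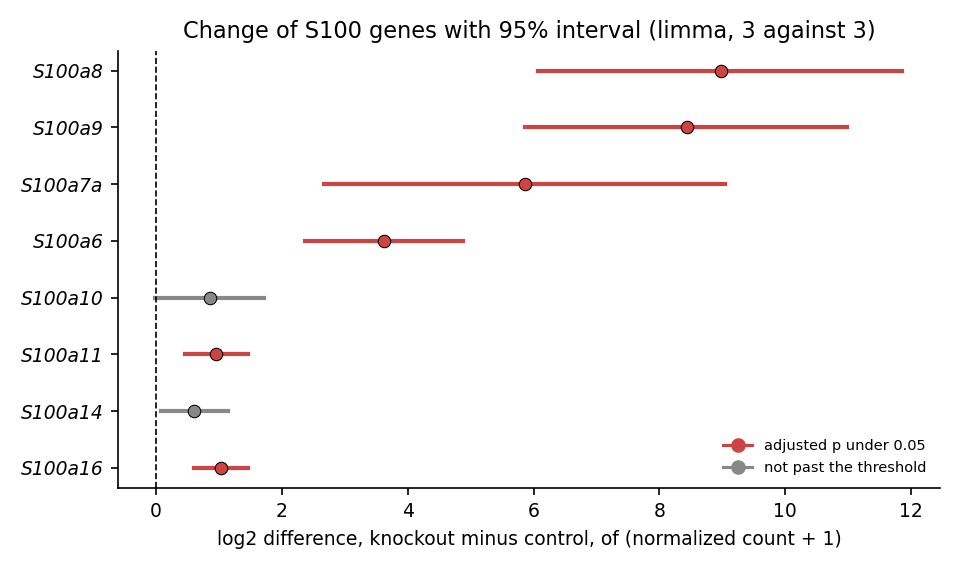
Points show the log2 difference of (normalized count + 1), knockout minus control, for each S100 gene in the table, with 95% intervals from limma on 3 against 3 libraries. S100a8 and S100a9 are at 8.97 and 8.43 with wide intervals, S100a7a at 5.86, S100a6 at 3.62, and the 4 others between 0.61 and 1.03, where S100a10 and S100a14 (grey) do not pass.

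The differences of the highly expressed members are small enough to depend on the scaling. With library totals set equal, the median gene moved to −0.36, and S100a16, S100a11 and S100a14 were at 0.69, 0.62 and 0.27 on the log2 scale (limma adjusted p = 0.0076, 0.0268 and 0.3). With quantile normalization they were at 0.57, 0.61 and 0.18 (adjusted p = 0.0127, 0.0279 and 0.482), while S100a6 and S100a8 were at 3.66 and 8.79. Labelled knockout 1, the only one with Xist near 0 like the controls, gave log2 differences of 8.66 for S100a8, 7.81 for S100a9, 4.28 for S100a6 and 0.84 for S100a16 when set alone against the controls. With 1 library in the group these are sizes only, since no spread between labelled knockouts enters. Exact two-sided permutation tests gave p = 0.1 for each of the 5 members whose groups did not overlap, the smallest p that 3 against 3 libraries allow.

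Per kilobase of the principal annotated transcript, levels in controls ran in the order S100a11 (2660 ± 422 normalized counts per kilobase, SD, n = 3), S100a14 (1950 ± 412), S100a16 (1860 ± 226), S100a10 (797 ± 256), S100a6 (38.7 ± 20.9), S100a9 (0.569 ± 0.985) and S100a8, listed at 0. S100a14 and S100a16 did not differ beyond their spread, and they change places when the merged exons of all transcripts are used. In the labelled knockouts, S100a11 stayed first with 5240 ± 1310 and S100a6 was last with 474 ± 229. S100a8 had 829, 9630 and 135 per kilobase in labelled knockout 1 to 3. It was the most abundant listed member in labelled knockout 2, though with merged exons it was nearly level with S100a11 there (6750 and 6720). S100a8 was the least abundant in labelled knockout 3, where S100a9 had 167 and S100a6 228. Per kilobase, S100a8 and S100a9 together made up 10.1, 47.7 and 2.31% of the 7 members in labelled knockout 1 to 3 and at most 0.0211% in a control. The mean log2 value of the pair minus that of the 5 other members was −9.27, −9.03 and −8.93 in controls. It was −2.26, 0.93 and −4.05 in labelled knockouts, so the pair exceeded the others on this scale in replicate 2 only.

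In the RefSeq order of chromosome 3 (GRCm38.p6, a different build from the mm39 of the files), S100a8 and S100a9 are neighbours, S100a7a and S100a6 come just before them, and S100a14 and S100a16 lie earlier in the same cluster. S100a11 and S100a10 lie at the far end of the epidermal differentiation complex, beyond the small proline-rich and late cornified envelope genes. After S100a9 up to S100a10, 56 of 86 annotated genes were tested. Of these, 46 were higher and 4 lower, with a median log2 difference of 2.96, against 17.7% higher and 15.9% lower among all genes. In the stretch from S100a1 to S100a9, 6 of 15 annotated genes were tested, with 5 higher, 0 lower and a median of 4.74. They are the S100 genes already described. S100a8, S100a9 and S100a7a entered the table only through labelled knockouts, so this count and median rest partly on them. The same limit applies to any gene of the other stretch under an estimated 30 reads in all controls. S100a9, just before the stretch with 56 tested genes, and S100a10, at its end, were at 8.43 and 0.86.

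Promoter sequences are shown for the pair that rose together, for S100a7a, which had the same order of libraries, and for S100a11, a member high in every library. RefSeq windows (GRCm38.p6) were found for 5 of the 7 members and for S100a7a. Each window is the 250 bases before the annotated start, read 5′ to 3′ in the direction of the gene, and capitals mark motif matches.
S100a8, chr3:90668821-90669070, plus strand: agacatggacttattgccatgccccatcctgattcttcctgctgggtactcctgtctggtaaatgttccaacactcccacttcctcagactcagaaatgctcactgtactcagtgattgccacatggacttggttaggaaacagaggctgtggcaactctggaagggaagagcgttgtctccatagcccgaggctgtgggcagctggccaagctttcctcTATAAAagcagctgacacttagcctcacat
S100a9, chr3:90695722-90695971, minus strand: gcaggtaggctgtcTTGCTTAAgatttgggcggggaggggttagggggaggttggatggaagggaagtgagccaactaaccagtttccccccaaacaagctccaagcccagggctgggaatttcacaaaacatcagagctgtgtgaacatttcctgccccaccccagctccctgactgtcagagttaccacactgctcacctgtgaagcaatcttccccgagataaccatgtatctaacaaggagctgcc
S100a7a, chr3:90654052-90654301, plus strand: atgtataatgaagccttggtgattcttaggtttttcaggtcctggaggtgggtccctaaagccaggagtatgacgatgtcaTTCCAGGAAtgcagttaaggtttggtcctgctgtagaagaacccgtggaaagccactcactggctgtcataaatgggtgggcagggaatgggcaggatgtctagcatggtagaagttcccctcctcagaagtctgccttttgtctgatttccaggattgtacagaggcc
S100a11, chr3:93520246-93520495, plus strand: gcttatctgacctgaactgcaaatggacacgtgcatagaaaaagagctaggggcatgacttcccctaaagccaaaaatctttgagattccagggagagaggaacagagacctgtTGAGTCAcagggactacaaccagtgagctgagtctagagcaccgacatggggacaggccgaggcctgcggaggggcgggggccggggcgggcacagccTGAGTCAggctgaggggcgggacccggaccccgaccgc

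Motifs of 5 kinds were searched on both strands, and no matches overlapped each other. The AP-1 motif TGANTCA had 2 matches in the S100a11 window, 136 to 130 and 38 to 32 bases before the start, and 1 match in 1 of 2 S100a16 windows. It occurs in 6.75% of the 32851 windows of the same length in the table. The C/EBP motif TTGCNNAA was found in the S100a9 window, 236 to 229 bases before the start, and occurs in 9.56% of windows. A TATA box, TATAAA, lay 30 to 25 bases before the S100a8 start (12.4% of windows), and a STAT motif, TTCNNNGAA, lay in the S100a7a window (7.02%). The kappaB motif (7.25% of windows) was not found in these letters for any of the 6 genes, and the S100a6 window held none of the 5 motifs. S100a8 and S100a9 thus shared no searched motif in these windows.

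Transcription factors known to act on S100a8 and S100a9 were higher for 10 of 17 and lower for 1, with a median log2 difference of 0.96. Among all genes 17.7% were higher and 15.9% lower, with a median of −0.02. The AP-1 subunit Fosl1 rose by 3.57 ± 0.47, from 45.1, 65.8 and 45.2 normalized counts in controls to 536, 1387 and 321 in labelled knockouts (limma adjusted p = 0.0012). Hif1a, the hypoxia factor, rose by 2.33 ± 0.32, Cebpg by 1.23 ± 0.19 and the AP-1 subunit Junb by 1.10 ± 0.24. The Junb call was lost with quantile normalization (limma adjusted p = 0.099) and with labelled knockout 1 alone. Cebpa, a factor of keratinocyte differentiation, was lower (−0.96 ± 0.29), a call lost without control 2 or 3, without labelled knockout 1 or 2 and without the variance trend. The count of higher factors was 5 without control 1, 2 or 3 and 4 without labelled knockout 2. It was also 4 with equal library totals, 5 with quantile normalization, with 4 then lower, and 5 without the trend.

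Cytokines listed as possible inducers of S100a8 and S100a9 in keratinocytes were in the table for 8 of 17. Of these, 7 were higher and 0 lower, with a median of 3.06, where 17.7% of all genes were higher. Their action on S100a8 and S100a9 was not tested. The epithelial cytokine Tslp was listed at 0, 0.886 and 0 normalized counts in controls and had 2517, 6315 and 2697 in labelled knockouts. Tslp entered the table only through the labelled knockouts, as did Il33, Il1b and Osm, with at most 14 estimated reads in a control. The count of higher cytokines thus rests partly on genes admitted by that group. Il1a rose by 3.70 ± 0.24, the alarmin Il33 by 6.79 ± 0.78 and Il36b by 1.69 ± 0.19 on the log2 scale. Il1a and Il36b varied less between animals than S100a8, as did nearly all genes, since only 0.311% had a larger spread in labelled knockouts. There Il1a had 577, 1038 and 800 normalized counts and Il36b 1052, 1358 and 1209. Il1b and Osm were far higher in labelled knockout 2 than in the others, with 24.3, 490 and 63.2 and with 5.61, 296 and 13.3. Il1b passed the test and Osm did not (limma adjusted p = 0.0269 and 0.122).

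Receptors and adaptors for extracellular S100a8 and S100a9 were in the table for 11 of 14, without Ager. Of these, 3 were higher and 2 lower, with a median of 0.44, shares not far from the 17.7% and 15.9% of all genes. Tlr4, the toll-like receptor that binds the pair, had 12.1, 2.66 and 8.99 normalized counts in controls and 119, 289 and 32.2 in labelled knockouts, a rise of 3.74 ± 0.80 (limma adjusted p = 0.00893). Bsg, or basigin, rose by 1.33 ± 0.21 from 1185 to 1584 up to 2808 to 4284, and the adaptor gene Tirap by 2.28 ± 0.49. Tlr4 and Tirap, with at most 16 and 14 estimated reads in a control, entered the table only through labelled knockouts. The count of higher members rests partly on them. Alcam was lower (−1.19 ± 0.29), a call lost without control 1 and with labelled knockout 1 alone, and so was the kinase gene Irak4 (−1.34 ± 0.33), lost without control 2 or 3. Higher members numbered 5 with the replicate block, where 22.9% of all genes were higher, and also 5 without labelled knockout 2. Only 1 was lower without control 1, 2 or 3 and with labelled knockout 1 alone.

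Antimicrobial and metal-binding proteins were in the table for 9 of 15, with 5 higher and 0 lower (8 higher without labelled knockout 3), against 17.7% higher among all genes. The peptidoglycan recognition gene Pglyrp3 rose by 4.0 ± 0.34 and the beta-defensin Defb1 by 2.05 ± 0.44. The defensin Defb4 was listed at 0 in controls and had 32.7, 238 and 23.3 normalized counts in labelled knockouts, through which alone it entered the table. The protease inhibitor gene Slpi rose by 4.66 ± 0.99 from at most 4.53 normalized counts, a call lost with labelled knockout 1 alone. Slpi, with at most 6 estimated reads in a control, also entered the table only through labelled knockouts. The count of higher members thus rests partly on Defb4 and Slpi. Pglyrp3, Defb1, Defb4 and Slpi all followed the order 2, 1, 3 of S100a8, which 38.8% of all higher genes had.

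Annexins, calcium-dependent membrane-binding proteins and the best known partners of S100 dimers, were in the table for 10 of 12. Of these, 4 were higher and 2 lower, with a median of 0.33, against 17.7% and 15.9% of all genes. Anxa3 rose by 3.75 ± 0.57, from 9.06, 3.54 and 13.9 normalized counts to 159, 175 and 57.7. With at most 17 estimated reads in a control, Anxa3 entered the table only through labelled knockouts. Anxa8 rose by 1.72 ± 0.26 and Anxa11, which binds S100a6, by 1.87 ± 0.36. Anxa5 fell from 421, 428 and 408 to 168, 184 and 168 normalized counts, a change of −1.27 ± 0.17 (limma adjusted p = 0.00121). Anxa4 changed by −0.67 ± 0.20, a call lost without control 1, 2 or 3 or without labelled knockout 1, where 1 annexin was lower. The groups did not overlap for 6 of 10, Anxa1, Anxa3, Anxa4, Anxa5, Anxa8 and Anxa11, where 50.8% of all genes had groups that did not overlap.

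**Figure D4:**
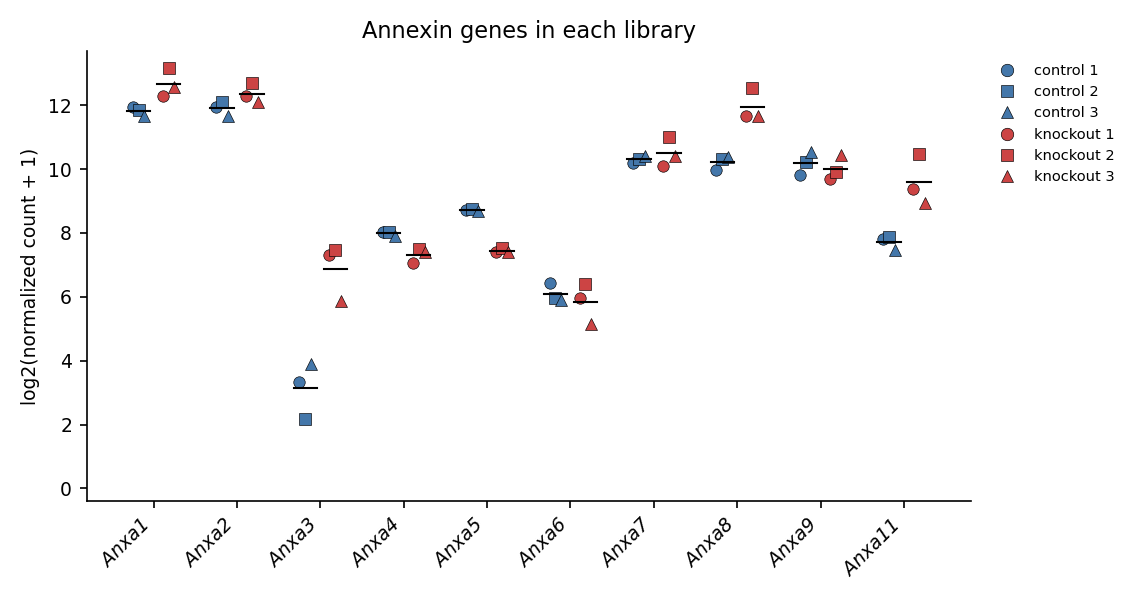
Points show log2(normalized count + 1) of the 10 annexin genes in the table in each library, controls in blue and labelled knockouts in red, with lines for group means. Anxa1, Anxa3, Anxa8 and Anxa11 lie higher and Anxa4 and Anxa5 lower in all 3 labelled knockouts, while Anxa2, Anxa6, Anxa7 and Anxa9 overlap.

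The annexin partners of S100a10 and S100a11 had differences under 1 on the log2 scale. Anxa2 had 3974, 4435 and 3264 normalized counts in controls and 5054, 6620 and 4404 in labelled knockouts (log2 difference 0.45 ± 0.21, limma adjusted p = 0.127). Each labelled knockout exceeded the control of the adjacent animal number, and with the replicate block Anxa2 passed (adjusted p = 0.0328), which made 5 annexins higher, while with quantile normalization it was at −0.06. Anxa1 had 3917, 3705 and 3249 and then 5059, 9145 and 6037 (0.86 ± 0.24, limma adjusted p = 0.025), a call lost without control 1, 2 or 3 (adjusted p = 0.0591, 0.0747 and 0.092), with quantile normalization (0.34), without the variance trend and with labelled knockout 1 alone. The ratio of S100a10 to Anxa2 normalized counts, not corrected for length, was 0.149, 0.157 and 0.108 in controls and 0.218, 0.216 and 0.124 in labelled knockouts. The ratio of S100a11 to Anxa1 was 0.342, 0.428 and 0.356 and then 0.430, 0.376 and 0.400. Both ratios overlapped between the groups, and the ratio to Anxa2 was higher in the labelled knockout of each adjacent pair.

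Of 9 other binding partners of S100 proteins in the table, 4 were higher and 0 lower, with a median of 0.40 (1 was lower with equal library totals), where 17.7% of all genes were higher. The non-muscle myosins Myh9 and Myh14 rose by 1.36 ± 0.20 and 1.72 ± 0.31, the S100a6-binding co-chaperone gene Sugt1 by 0.95 ± 0.19 and Ezr, the membrane linker ezrin, by 1.15 ± 0.28. The Sugt1 call was lost with equal library totals (0.61, adjusted p = 0.0531) and with labelled knockout 1 alone, and the Ezr call without control 1 or 3. Cacybp and the scaffold gene Ahnak did not pass (0.06 ± 0.25 and 0.10 ± 0.23), and both were below 0 with equal library totals (−0.28 and −0.24).

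S100 fused-type genes, large cornified envelope proteins that begin with an S100 domain, went both ways: 2 of 6 were higher and 3 lower, with a median of −0.60, against 17.7% and 15.9% of all genes. Rptn and Crnn rose by 5.63 ± 0.38 and 4.0 ± 0.37, Tchh, or trichohyalin, was lower (−2.88 ± 0.56), and so was Flg2 (−0.97 ± 0.32). Crnn, with at most 18 estimated reads in a control, entered the table only through labelled knockouts. The Flg2 call was lost without each single control, without labelled knockout 1 or 2, without the trend and with labelled knockout 1 alone, and 1 lower member was left in each of these settings. Among 19 calmodulin and calcium handling genes 2 rose and 6 fell, with a median of −0.31, where 17.7% of all genes were higher and 15.9% lower. The plasma membrane calcium pump gene Atp2b4 fell by 1.49 ± 0.16 on the log2 scale and the calcium release channel gene Itpr2 by 1.29 ± 0.20. Calm5, a calmodulin relative of epidermis, fell by 1.86 ± 0.32, while the pump genes Atp2b1 and Atp2a2 rose by 1.60 ± 0.27 and 0.74 ± 0.18. The Atp2a2 call was lost with equal library totals (0.39, adjusted p = 0.0603), with quantile normalization, without control 1 or 2 and with labelled knockout 1 alone, and 1 member was then higher.

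**Figure D5:**
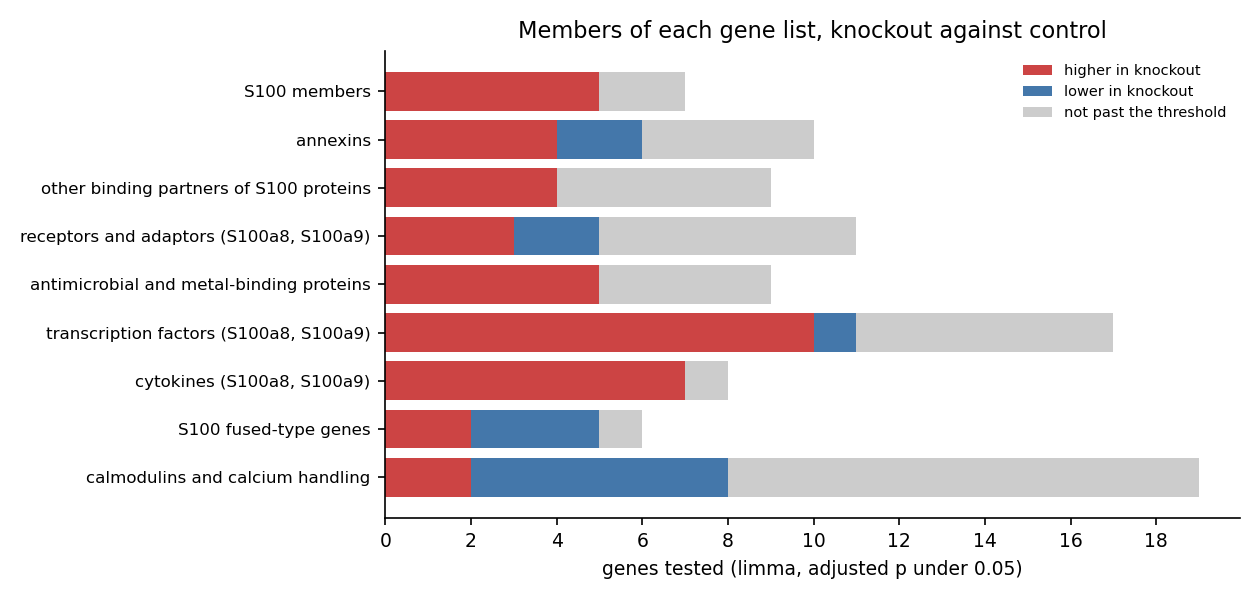
Bars count the genes tested in each list (x axis), higher (red) or lower (blue) in labelled knockouts at a limma adjusted p of 0.05, or not past it (grey). The S100 members, cytokines and antimicrobial genes have 5 of 7, 7 of 8 and 5 of 9 higher and 0 lower, while the calcium handling genes have 2 higher and 6 lower of 19. Of all 12872 genes 17.7% were higher and 15.9% lower. Members under an estimated 30 reads in every control entered the table only through labelled knockouts.

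The genes whose log2 values over the 6 libraries were most like those of S100a8, among 6128 genes with a mean of at least the median and a symbol that is no predicted or clone name, were Wdr37, Ippk, Eaf1, Pfn1 and Plin2, with Pearson correlations from 0.9996 to 0.9976. For S100a9 they were Fosl1, Hbs1l, Usp2, Gtpbp4 and Surf4, from 0.9995 to 0.9988. Likeness here concerns only the shape over 6 libraries. Plin2, a lipid droplet coat protein gene, had 54.4, 54.0 and 42.5 normalized counts in controls and 964, 2768 and 460 in labelled knockouts, whereas Wdr37 went only from 109.5, 109 and 109 to 188, 226 and 157.5.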

How the data were processed

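RNA of 6 epidermis libraries was measured by bulk sequencing. As deposited by the authors, the signal is a normalized count per gene whose total differs between libraries. TopHat2 2.1.0, Partek 9.0.20.0202 and build mm39 are named, without their roles, per the submitters' processing notes. The sources used here do not state counting, strand handling or normalization. Fractional values remained, so no count model was used. The read estimates divide each value by the smallest value shared by many genes (at least 0.3 times as many as the commonest value). Between 80.4 and 83.0% of values below 20 reads were whole multiples of it within 0.02 of a read. Symbols matched 12771 of 12894 IDs.

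Genes above 1 in at least 3 libraries (12872) were tested as log2(value + 1) with limma 3.58.1 in R 4.3.3, with a mean-variance trend and Benjamini-Hochberg adjustment over all of them at 0.05. Fits with a library left out asked for as many libraries above 1 as the smaller group has. The fit was tested on simulated data. No list test was run. Members, lists and tests were chosen with earlier results of these data known. Named genes were all S100 genes, up to 4 called members per list by adjusted p and those against their list's majority, all neutrophil markers, the 2 highest markers of other cell types, and the 5 genes most like S100a8 and S100a9. Anxa1, Anxa2, Cacybp, Ahnak, Cd68, Lyz2 and C1qa were added after their values were seen. So were Il1b and Osm, which were not followed through the alternative settings.

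Adjacent animal numbers in the titles were taken to pair libraries: deviations from group means correlated by 0.37, 0.23 and 0.36 within pairs; no litter is stated. Alternatives covered pseudocounts, filters, scaling, the limma prior, library weights, the block, each library left out, and labelled knockout 1 alone against the controls. Transcript lengths came from GENCODE's annotation of GRCm38.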

Additional observations from a re-analysis of the deposited data

How the results depend on the processing

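S100a8, S100a9, S100a6 and S100a16 kept their direction and their call in all 17 alternatives, and S100a7a in the 16 in which it was tested, since values above 10 in at least 3 libraries leave it out. Leaving out each library in turn gave log2 differences of 7.36 to 10.43 for S100a8, 6.98 to 9.57 for S100a9, 0.56 to 1.26 for S100a10, 0.76 to 1.09 for S100a11 and 0.45 to 0.81 for S100a14. With the replicate block of adjacent animal numbers S100a10 (0.86, adjusted p = 0.00394) and S100a14 (0.61, 0.0115) passed. The block raised all genes to 22.9% higher. Among the lists it gave 5 receptors and adaptors, 7 antimicrobial genes, 11 transcription factors and 8 cytokines higher. Calcium handling genes were then 3 higher and 7 lower. Of the 74 other named genes followed through the alternatives it changed the calls of Anxa2, Mmp9 and Il1r2 only, all of which then passed. With knockout 1 alone S100a11 did not pass (0.69), and 2486 genes did, 1265 higher and 1221 lower. There the spread comes from the controls only.

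Over all genes, leaving out a library gave 2624 to 4509 genes, 1502 to 2342 of them higher and 1113 to 2167 lower, against 4328, 2279 and 2049. Equal library totals gave 1440 higher and 3065 lower.

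Leaving out a library gave, of the lists, 1 to 2 annexins lower, 3 to 5 receptors and adaptors higher and 1 to 2 lower, 5 to 8 antimicrobial genes higher, 4 to 9 transcription factors higher and 0 to 1 lower, 1 to 2 fused-type genes lower and 1 to 3 calcium handling genes higher. With equal library totals 1 other binding partner was lower, 4 transcription factors and 1 calcium handling gene higher. With quantile normalization 5 transcription factors were higher and 4 lower, and 1 calcium handling gene higher. Without the mean-variance trend 5 transcription factors were higher and 0 lower, and 1 fused-type gene lower. With knockout 1 alone 1 receptor or adaptor was lower, 4 transcription factors higher, 1 fused-type gene lower and 1 calcium handling gene higher. The cause of these moves was not tested, beyond the smaller number of libraries where some are left out. Of 74 other named genes, 37 kept their direction and call in every alternative. No called gene changed direction. Among those that did not pass, Ahnak was at −0.24 and −0.44 with equal totals and quantile normalization, Anxa2 at −0.06 with quantile normalization, and Cacybp at −0.28 with equal totals, −0.01 with array weights and −0.39 with knockout 1 alone. Hnrnpu was at 0.02 with array weights and 0.26 with knockout 1 alone, Hba-a2 at 0.15 with a pseudocount of 5, and Itgam, Csf3r and Dcn at −0.81, −1.27 and 0.31 with knockout 1 alone. Leaving out a library gave −0.13 to 0.28 for Cacybp, −0.15 to 0.15 for Hnrnpu, −0.49 to 1.22 for Itgam, −1.29 to 0.34 for Cd74, −1.35 to 0.69 for H2-Ab1, −2.56 to 0.94 for Hba-a2, −3.03 to 0.96 for Hbb-bs and −1.23 to 0.40 for Laptm5. Depth limits S100a7a, Tlr4 and the neutrophil markers, which rest on few reads in some libraries.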
